A study of Homo sapiens with 8 samples.

Results

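DU145 prostate cancer cells given FGF19 and TNFα together were compared with untreated cells, called Mock. The comparison used 4 of the study's 8 arrays, 2 with FGF19 + TNFα and 2 in Mock, and all 33297 probesets of the Affymetrix Human Gene ST array. Arrays were assigned by the treatment named in their sample titles, and no measured value entered the choice. The other 4 arrays, 2 with FGF19 alone and 2 with TNFα alone, are given beside them where they place a gene's level. They also entered the estimate of the spread.

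According to the sample labels, FGF19 + TNFα cells received 50 ng/ml FGF19 with 100 µg/ml heparin for 100 min in all. TNFα at 50 ng/ml was added 10 min after FGF19 and left for 90 min. FGF19 cells received the growth factor and heparin alone for 100 min, TNFα cells the cytokine alone for 90 min, and Mock cells none of the 3. The study's methods state lower concentrations of heparin and TNFα than the labels do. Every culture was of the one cell line and was serum-starved beforehand. Heparin was named for both groups given FGF19 and for no other group, so heparin and FGF19 cannot be told apart in these arrays. The labels call the 2 arrays of a group biological replicates without saying which cultures they came from, so p-values measure the spread between these arrays.

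FGF19 is a secreted fibroblast growth factor that signals through FGFR4 with the co-receptor β-Klotho, encoded by KLB, and activates the MAPK cascade. TNFα binds TNFR1, encoded by TNFRSF1A, and activates the IκB kinase complex. That kinase marks IκB proteins for destruction, which frees NFκB dimers to enter the nucleus and switch on chemokine, cytokine and survival genes. Among those genes are NFKBIA and TNFAIP3, whose products shut the pathway down again. The study asked how FGF19 signalling bears on the response to TNFα, and this comparison gives the level reached with both agents relative to neither.

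NFκB dimers bind DNA sequences that include GGG, any 2 bases and TTTCC, read as 1 run. That motif was searched on both strands in the 250 bases before the start of each gene, 1 start per gene, in RefSeq promoter sequences on GRCh38.p14. Among the named genes that rose at least 2-fold with FGF19 + TNFα, 49 of 62 had a promoter sequence and 10 of these held the motif (20.4%). Of the named genes that fell at least 2-fold, 48 of 59 had one and 2 held the motif (4.17%), CHMP1A and PLLP. Among all 27305 promoters of the table, 473 held it (1.73%), and among the 14237 of genes with a named probeset on the array, 260 did (1.83%). Many of the named raised genes come from lists of chemokines, cytokines and NFκB targets, so their share is not independent of that choice and nothing is read from its size. The shares describe the letters in the windows, and a match is not a measured binding site. Windows of 30 bases are printed for 8 of the raised genes, whose levels are described below. CXCL2 and SELE also held the motif and their windows are not printed. The motif is in capitals and in the orientation that begins with GGG.
CCL20: gttgccacatGGGGTTTTCCccattgatca
CXCL1: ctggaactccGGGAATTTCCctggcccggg
CXCL5: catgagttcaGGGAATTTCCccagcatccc
TNFAIP3: ggatttccacGGGACTTTCCaaagtcacgt
NFKBIA: gtcaggctcgGGGAATTTCCaagccagtca
NFKBIZ: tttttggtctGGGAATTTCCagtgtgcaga
IL6: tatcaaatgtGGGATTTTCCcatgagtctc
REL: ctggcgggagGGGAATTTCCcgcggctgac

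The window of CCL20 lay at chr2:227813753-227813782, that of CXCL1 at chr4:73869304-73869333 and that of CXCL5 at chr4:73998749-73998778. The TNFAIP3 window was at chr6:137867182-137867211, and a second match in the same promoter overlapped its window at chr6:137867194-137867223. NFKBIA held its match at chr14:35404811-35404840, NFKBIZ at chr3:101827757-101827786, IL6 at chr7:22727117-22727146 and REL at chr2:60881518-60881547. The CCL20, TNFAIP3, NFKBIA and REL windows are read from the strand opposite to the gene, the other 4 from the strand of the gene. The motif ended 69 bases before the gene's start in CCL20 and CXCL1, 63 bases before it in IL6 and 71 in NFKBIA. CXCL8, which rose strongly, had no match to these letters in its window.

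Linear PLIER signal was compared on the log2 scale with limma, fitted to all 8 arrays, and probesets were called higher or lower at a Benjamini-Hochberg adjusted p under 0.05 over all 33297. Array medians of signal were 106.6 and 103 with FGF19 + TNFα and 101.3 and 102.4 in Mock. In log2 signal the 2 arrays of a group correlated across probesets at r = 0.967 to 0.980, and FGF19 + TNFα arrays with Mock arrays at 0.940 to 0.959. Total RNA from a culture gives a level per mass of RNA, so fewer expressing cells and less RNA per cell cannot be told apart.

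With FGF19 + TNFα, 6410 probesets were higher than in Mock (19.3% of those tested) and 4885 were lower (14.7%), together 11295 (33.9%). A 2-fold difference or more was found for 2151 called probesets (6.46%), 1158 of them higher (3.48%) and 993 lower (2.98%). At 4-fold or more there were 84 higher and 43 lower. Mock was not near the array floor in 52 of the 84, and FGF19 + TNFα was not near it in 19 of the 43. The size of the other differences in these counts is not firm. The median log2 difference over all probesets was 0.08. By the moderated F test over the 4 groups at an adjusted p under 0.015 with a 2-fold difference from Mock, 1854 probesets were called (5.57%). The number called depended on single arrays: it was 5643 without FGF19 + TNFα replicate 2, 6436 without Mock replicate 1, 6166 without Mock replicate 2 and 8365 without FGF19 + TNFα replicate 1. Counting each gene once by its brightest probeset, 3955 of 18417 genes were higher (21.5%) and 3187 lower (17.3%), and these shares are the background for the gene groups below. Signals of the 2 FGF19 + TNFα arrays lay wholly above or wholly below those of the 2 Mock arrays for 71.1% of all probesets, so separation of the groups alone says little about a gene.

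**Figure D1:**
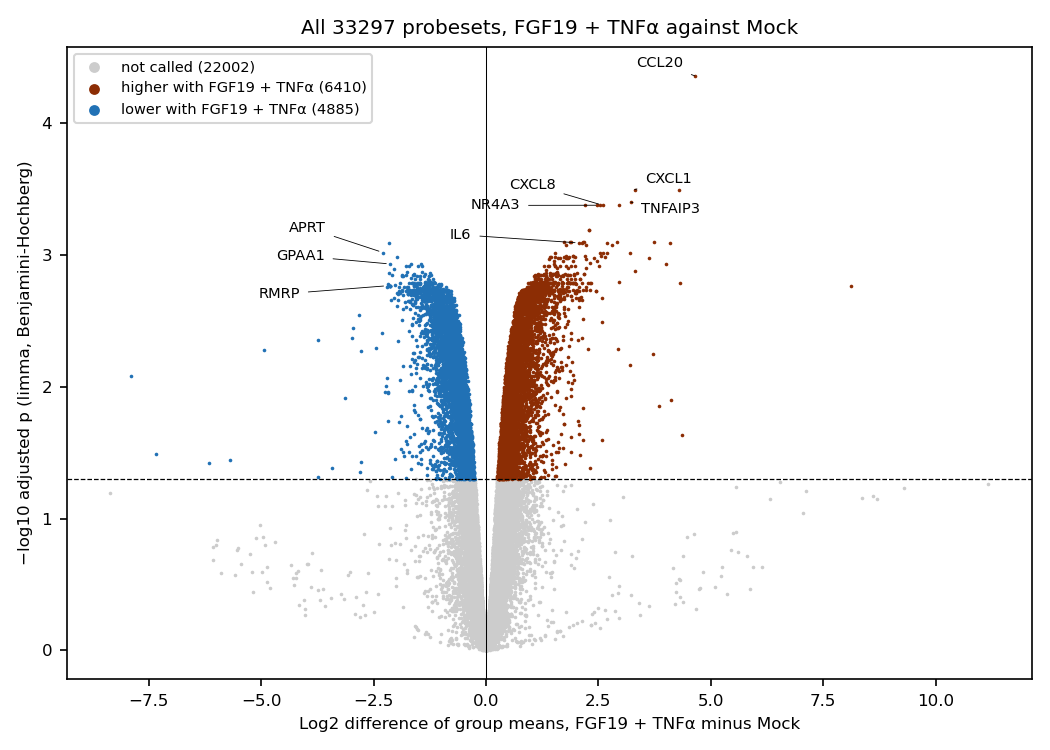
Each point is 1 of 33297 probesets. The horizontal axis is the log2 difference of group means, FGF19 + TNFα minus Mock, the vertical axis −log10 of the limma adjusted p, and the dashed line an adjusted p of 0.05. CCL20, CXCL1 and TNFAIP3 stand at the upper right among 6410 higher probesets, and APRT, GPAA1 and RMRP at the left among the 4885 lower ones; points beyond 5 log2 units on either side come from signals at or near 0.

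Chemokine genes were among the largest rises. CCL20, which attracts cells carrying CCR6, had a signal of 2743 and 2642 with FGF19 + TNFα, against 104.4 and 112.2 in Mock. The 2 groups were far apart, a 24.9-fold rise (log2 difference 4.64, SE 0.08, adjusted p = 4.36e-05 by limma, n = 2 arrays per group), and no other probeset had a smaller adjusted p. CXCL1, a neutrophil chemokine, read 1032 and 1103 with FGF19 + TNFα, against 101.1 and 115.1 in Mock. Its rise was 9.89-fold (log2 difference 3.31, SE 0.10, adjusted p = 0.000319 by limma). For CXCL8, which encodes interleukin 8, the signals were 2708 and 2892 with FGF19 + TNFα, against 443.7 and 483.6 in Mock, a 6.04-fold rise (log2 difference 2.60, SE 0.10, limma adjusted p = 0.000419). CXCL2, another neutrophil chemokine, rose 3.66-fold and CXCL5 3.32-fold. Of 30 chemokine genes measured, 13 were higher and none was lower, with a median log2 difference of 0.31 beside 0.07 over all genes. That median was 0.20 after quantile normalization and 0.47 without FGF19 + TNFα replicate 2. Also among the 13 were CXCL10, higher by 3.51-fold, CXCL11 by 2.22-fold and CXCL3 by 2.13-fold. Leaving out 1 of the 4 arrays compared left 9 to 12 of them called higher. With TNFα alone 7 of the 30 were higher than Mock, where 0.967% of all probesets were, and with FGF19 alone 9, where 18.2% were. These comparisons share the Mock arrays.

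Of the subunits and inhibitors of NFκB, 9 of 11 genes were higher and none was lower, with a median log2 difference of 0.84. NFKBIZ, a nuclear IκB protein that helps switch on a subset of targets, had 509.9 and 598.5 with FGF19 + TNFα, against 119.9 and 119.4 in Mock, and rose 4.62-fold (adjusted p = 0.00102 by limma). REL, the c-Rel subunit, had 1128 and 1203 with FGF19 + TNFα, against 364.9 and 379.4 in Mock, a 3.13-fold rise. NFKBIA, which encodes IκBα, the inhibitor that holds the dimers in the cytoplasm, had 4779 and 4582 with FGF19 + TNFα, against 1800 and 1654 in Mock, 2.71-fold higher (log2 difference 1.44, SE 0.10, limma adjusted p = 0.00144). NFKBID rose 2.59-fold, BCL3, a coactivator of the pathway, 2.10-fold, NFKB2 1.79-fold, NFKB1 1.75-fold and RELA 1.67-fold. The ninth, NFKBIE, is described below.

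Feedback inhibitors and survival targets of the pathway gave 10 higher and 2 lower of 15 measured, with a median log2 difference of 0.87. TNFAIP3 encodes A20, a ubiquitin-editing enzyme that ends the signal. It read 2048 and 2196 with FGF19 + TNFα, against 219.9 and 235.4 in Mock, a 9.32-fold rise (log2 difference 3.22, SE 0.10, adjusted p = 0.000397 by limma). BCL2A1, an anti-apoptotic BCL2 relative, rose 4.84-fold, TNIP3 2.64-fold, SOD2, the mitochondrial superoxide dismutase, 2.15-fold, and CYLD, a deubiquitinase that restrains the pathway, 1.86-fold. The 2 that fell were TNIP2, a partner of A20, by 0.97 on the log2 scale, and GADD45B, at 1.49-fold lower. The GADD45B call was lost without any 1 of the 4 compared arrays, while the TNIP2 call was kept each time. TNIP2 had 196.7 and 206.7 with FGF19 + TNFα, against 408.4 and 382.5 in Mock.

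Cytokine genes were mostly not called. Of 28 measured, 7 were higher, a share not far from the 21.5% of all genes, and none was lower. Their median log2 difference was 0.227, beside 0.074 over all genes. After quantile normalization these medians were 0.055 and −0.006. IL6 had 503.6 and 488.2 with FGF19 + TNFα, against 112.1 and 123.9 in Mock, a 4.21-fold rise (log2 difference 2.07, SE 0.10, adjusted p = 0.00081 by limma). IL23A rose 2.38-fold, CSF1, the macrophage growth factor, 2.19-fold and TGFB2 2.12-fold. The count was 4 to 6 when 1 of the 4 compared arrays was left out. Adhesion and innate immunity genes had 8 of 21 higher and 2 lower. C3, the central complement protein, read 231.5 and 226.6 with FGF19 + TNFα, against 64 and 68.97 in Mock, 3.45-fold higher. ICAM1, the leukocyte adhesion molecule, rose 2.71-fold and CD44, the hyaluronan receptor, 2.12-fold. SELE, E-selectin, had 73.99 and 77.82 with FGF19 + TNFα, against 11.96 and 12.22 in Mock. PTX3, a pentraxin of innate immunity, had 154.1 and 161.4 with FGF19 + TNFα, against 18.89 and 21.75 in Mock. For both SELE and PTX3 the Mock level lay under the 20th percentile of its arrays, so the groups are apart but the size of the rise is not firm. Among genes of the plasminogen system and the matrix, 6 of 15 were higher and none lower, and 3 to 5 were higher without 1 of the 4 arrays. TIMP2, an inhibitor of matrix metalloproteinases, rose 1.61-fold, with 1492 and 1540 with FGF19 + TNFα, against 878.5 and 1008 in Mock, and HAS2, a hyaluronan synthase, rose 1.66-fold.

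The interferon response list was divided, with 12 of 41 genes higher, 11 lower and a median log2 difference of 0.12, which was −0.002 without FGF19 + TNFα replicate 1. IRF1, an interferon regulatory factor, read 1616 and 1659 with FGF19 + TNFα, against 288.3 and 251.3 in Mock, a 6.08-fold rise (adjusted p = 0.000957 by limma). The guanylate-binding proteins GBP3 and GBP2, interferon-induced GTPases, rose 6.43-fold and 5.90-fold, and IRF2, a relative of IRF1, rose 2.98-fold. A second GBP2 probeset had a smaller difference, with 260.3 and 277.2 with FGF19 + TNFα, against 114.6 and 102.4 in Mock (log2 difference 1.31, adjusted p = 0.00159 by limma). On the lower side stood IFI6, at 2.25-fold, IRF9, a subunit of the interferon-activated factor ISGF3, at 2.21-fold, IFI35 at 2.20-fold, and PSMB8, an immunoproteasome subunit, at 2.17-fold. Leaving out 1 of the 4 compared arrays gave 9 to 11 higher and 5 to 11 lower.

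Among the other large rises, BAMBI, a decoy receptor of the TGFβ family, had 668.9 and 661.4 with FGF19 + TNFα, against 123.4 and 117.5 in Mock, a 5.52-fold rise. RARRES1, LINC03025, KLRC4-KLRK1 and KLRC3 also ranked among the 14 largest rises of probesets with 1 symbol and a mean signal of at least 100 in the higher group, each from a Mock level under that percentile, and the size of their rises is not firm either. RARRES1 had 161.5 and 183.2 with FGF19 + TNFα, against 22.19 and 23.46 in Mock. KLRC3, a receptor gene known from natural killer cells whose relatives are similar in sequence, had 105.8 and 123.9 with FGF19 + TNFα, against 15.01 and 18.13 in Mock. Markers of blood, endothelial, stromal and neuroendocrine cells were looked at beside it. Of 9 measured, CD3E and PTPRC were called higher and none was lower, and their summed signal was 858.1 and 840.4 with FGF19 + TNFα, against 798.4 and 798.1 in Mock. PTPRC, the pan-leukocyte marker, read 19.66 and 29.73 with FGF19 + TNFα, against 16.75 and 13.69 in Mock, under the 20th percentile on all 4 arrays. CD3E read 56.96 and 55.89 with FGF19 + TNFα, against 41.63 and 40.91 in Mock. PECAM1, an endothelial marker, was not called by its brighter probeset (log2 difference −0.307). A dimmer second PECAM1 probeset was called higher (log2 difference 0.671, adjusted p = 0.038 by limma). That one read 17.82 and 25.33 with FGF19 + TNFα, against 12.46 and 14.29 in Mock, also under the 20th percentile. No marker was at 0. The CD3E call was lost without any 1 of the 4 arrays, and the PTPRC call without Mock replicate 1, Mock replicate 2 or FGF19 + TNFα replicate 2, with adjusted p-values by limma of up to 0.126 for CD3E and 0.204 for PTPRC. The part of other cells in the KLRC3 result was not tested.

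**Figure D2:**
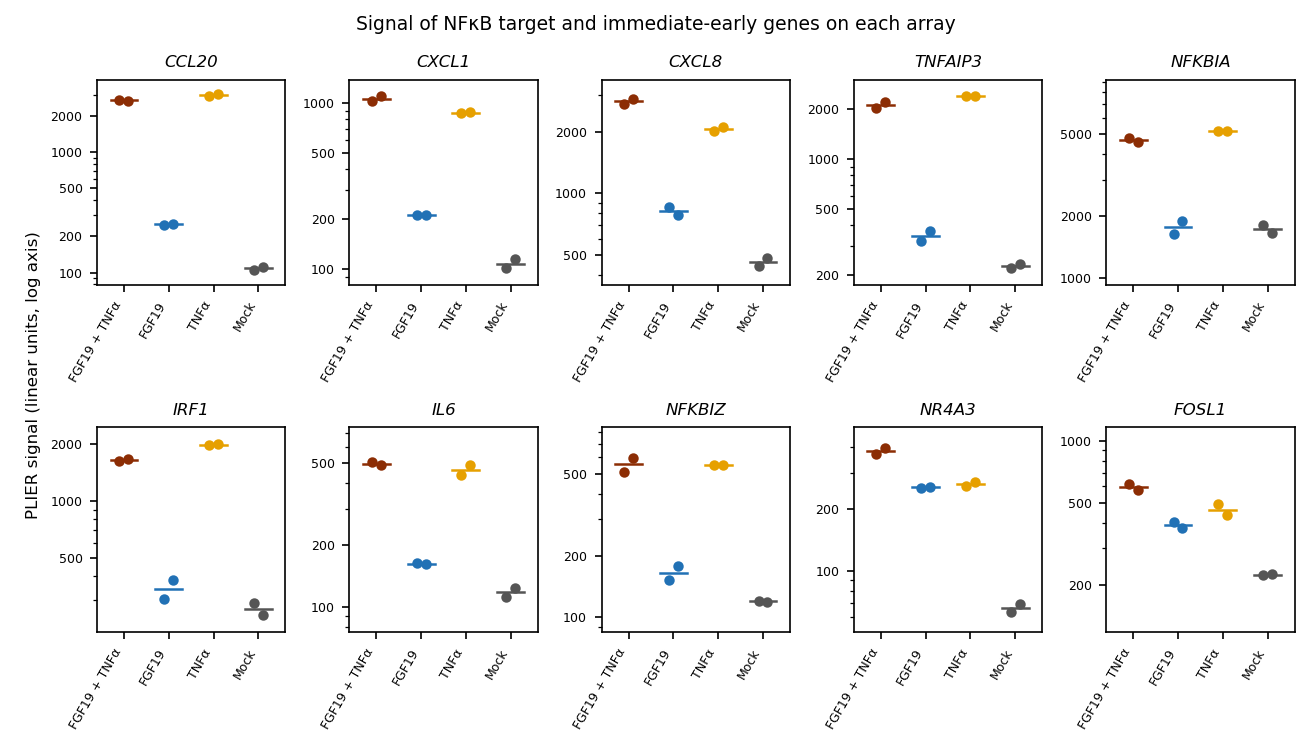
PLIER signal on a log axis for 10 genes in FGF19 + TNFα, FGF19, TNFα and Mock, with 1 point per array and a bar at the mean of 2 arrays. For each gene both FGF19 + TNFα arrays lie above both Mock arrays, from 2743 and 2642 with FGF19 + TNFα against 104.4 and 112.2 in Mock for CCL20 to 618.1 and 578.5 with FGF19 + TNFα against 221.8 and 224.4 in Mock for FOSL1.

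Immediate-early transcription factors, the first genes to answer growth factors and cytokines, had 19 of 36 higher and 3 lower, with a median log2 difference of 0.36. The NR4A orphan nuclear receptors led them. NR4A3 had 370.1 and 397.9 with FGF19 + TNFα, against 63.48 and 69.39 in Mock, a 5.78-fold rise (log2 difference 2.53, SE 0.09, adjusted p = 0.000419 by limma). NR4A2 rose 3.90-fold and NR4A1 2.74-fold. FOSL1, the AP-1 subunit FRA1, had 618.1 and 578.5 with FGF19 + TNFα, against 221.8 and 224.4 in Mock, a 2.68-fold rise. Smaller rises were measured for JUNB at 1.92-fold, MYC at 1.77-fold, ATF3 at 1.66-fold, JUN at 1.31-fold and EGR1 at 1.29-fold. The 3 lower genes were ID1, IER2 and IER5. ID1, an inhibitor of basic helix-loop-helix factors, had 143.1 and 133.1 with FGF19 + TNFα, against 651.9 and 572.2 in Mock, 4.42-fold lower (log2 difference −2.15, SE 0.14, limma adjusted p = 0.00137). Between 11 and 13 members stayed above the threshold on the higher side when 1 of the 4 compared arrays was left out.

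Feedback regulators of the MAPK pathway had 9 of 20 higher and 1 lower, and 6 or 7 higher without 1 of the 4 arrays. SPRY4, a Sprouty inhibitor of receptor tyrosine kinase signalling, had 191.4 and 204.9 with FGF19 + TNFα, against 62.57 and 49.59 in Mock, a 3.56-fold rise (adjusted p = 0.00163 by limma). The phosphatase gene DUSP10 rose 2.20-fold and SPRED2, a relative of the Sprouty genes, 2.04-fold. The exception was DUSP1, a phosphatase of p38 and JNK kinases, with 588 and 591.9 with FGF19 + TNFα, against 1242 and 1276 in Mock, 2.13-fold lower. Genes that hasten mRNA decay had 10 of 14 higher and 1 lower, and 6 higher in each fit without 1 of the 4 arrays. ZFP36, tristetraprolin, which binds AU-rich cytokine messages, rose 2.81-fold, ZC3H12C 2.34-fold and ZC3H12A, regnase-1, 1.83-fold. In the EGF family 6 of 11 genes were higher and ERBB2 alone was lower, and 3 to 5 were higher without 1 of the 4 arrays. EREG, a ligand of the EGF receptor, had 2476 and 2510 with FGF19 + TNFα, against 1286 and 1203 in Mock, a 2.00-fold rise. EGFR rose 1.86-fold, and ERBB2 fell by 1.04 on the log2 scale.

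The receptors themselves changed little. Among FGF receptors, co-receptors and adaptors 5 of 17 genes were higher (29.4%) and 3 lower (17.6%), not far from the 21.5% and 17.3% of all genes. Among TNF receptors and their kinase complexes 6 of 19 were higher and 6 lower (31.6% each). With 1 of the 4 compared arrays left out, the higher counts were 4 and 3 to 4, and the lower counts 0 to 2 and 1 to 4. FGFR4 had 122.8 and 115.2 with FGF19 + TNFα, against 167.5 and 151.4 in Mock, 1.34-fold lower (log2 difference −0.42, SE 0.10, adjusted p = 0.0197 by limma). That call was lost without Mock replicate 1 or either FGF19 + TNFα array, with an adjusted p by limma of up to 0.107. KLB read 97.56 and 113 with FGF19 + TNFα, against 112.6 and 101.3 in Mock, and the groups overlapped. TNFRSF1A was 1.24-fold lower (limma adjusted p = 0.0334), a call lost without any 1 of the 4 arrays, with an adjusted p by limma of up to 0.134. IKBKB, which encodes the catalytic kinase IKKβ, had 335.3 and 341.6 with FGF19 + TNFα, against 366.1 and 367.7 in Mock, and the difference did not pass the test (log2 difference −0.12, SE 0.11, adjusted p = 0.464 by limma). IKBKG, the regulatory subunit NEMO, fell by 0.79 on the log2 scale. It had 45.11 and 38.27 with FGF19 + TNFα, against 75.09 and 68.4 in Mock. The FGF19 + TNFα signals were not far above the 20th percentile of those arrays, 36 and 35.3. With 16 added before log2 the difference was −0.606. Further down the 2 pathways, SOS1, the exchange factor that loads RAS, rose 2.62-fold, GAB1, an adaptor of FGF receptors, 1.84-fold, TAB3, a partner of the kinase TAK1, 2.26-fold and MAP3K8, a kinase upstream of ERK, 3.51-fold. MAP3K8 had 284.6 and 321.9 with FGF19 + TNFα, against 89.83 and 82.63 in Mock. A dimmer second probeset of GAB1 was not called.

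The single agents differed in how much of this they gave. TNFα alone called 354 probesets against Mock (1.06%) and FGF19 alone 10731 (32.2%), all 3 comparisons with the same Mock arrays. FGF19 + TNFα was called apart from TNFα at 10773 probesets (32.4%) and from FGF19 at 94 (0.282%), 93 of them higher with both agents (0.279%). CCL20 averaged 2692 with FGF19 + TNFα, 251.2 with FGF19, 2981 with TNFα and 108.3 in Mock. Its level with FGF19 + TNFα exceeded that with FGF19 (log2 difference 3.42, adjusted p = 0.000285 by limma) and was not called apart from TNFα (log2 difference −0.15, adjusted p = 0.222). TNFAIP3 averaged 2122 with FGF19 + TNFα, 345.7 with FGF19, 2394 with TNFα and 227.6 in Mock. For APRT the order was another: 131.4 with FGF19 + TNFα and 153 with FGF19, but 572.6 with TNFα and 645.4 in Mock. No probeset passed the test of the interaction of the 2 agents (0.0% called by limma at an adjusted p under 0.05, with 1715 at an unadjusted p under 0.05 and 0 to 11 over the alternatives). The fit used here thus detected no departure from additive log2 effects, while some of the alternatives called a few probesets. That the effects were additive is not shown by this.

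At 18 probesets, 11 with 1 gene symbol, FGF19 + TNFα was higher than Mock, higher than TNFα and higher than FGF19, each by its own test, and at 0 it was lower in all 3. Against TNFα, 19.4% of all probesets were higher. PPP4R4, a regulatory subunit of protein phosphatase 4, had 605.3 and 565.5 with FGF19 + TNFα, 254.2 and 229.3 with FGF19 alone, 353.1 and 346.7 with TNFα alone, and 116 and 121.8 in Mock. Each of the 4 groups stood clear of the others, and the rise over Mock was 4.92-fold. HIVEP2, a zinc finger protein that binds κB-like sequences, had 1000 and 1121 with FGF19 + TNFα, 560.4 and 507.4 with FGF19 alone, 744.9 and 739.6 with TNFα alone, and 229 and 236 in Mock. GCNT4, a glycosyltransferase, had 241 and 252.2 with FGF19 + TNFα, 117.2 and 117 with FGF19 alone, 120.2 and 122.6 with TNFα alone, and 51.12 and 59.4 in Mock. Here the single agents gave nearly the same level, and both together reached 2.03-fold that of TNFα alone (adjusted p = 0.00348 by limma). CXCL8 averaged 2800 with FGF19 + TNFα, 821 with FGF19, 2052 with TNFα and 463.6 in Mock. KDM6B, a histone H3K27 demethylase, rose 3.89-fold over Mock, RAPH1, the actin regulator lamellipodin, 3.66-fold, and KLF3, a transcriptional repressor, 2.88-fold. CXCL5, REL and GBP3 completed the 10 genes named from this class. Their place in it is not firm, with adjusted p-values by limma against FGF19 of 0.00365 to 0.0496 on all arrays. Each of the 10 lost the call against FGF19 in at least 1 fit without 1 of the 8 arrays. CXCL5, HIVEP2, KDM6B, KLF3, RAPH1 and REL lost it whichever array was left out. That held also for Mock and TNFα arrays, which do not enter that difference, so the loss cannot be laid to any single array. Against TNFα, PPP4R4, GCNT4, RAPH1 and KLF3 kept the call each time and the other 6 lost it at least once, with an adjusted p by limma of up to 0.153.

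**Figure D3:**
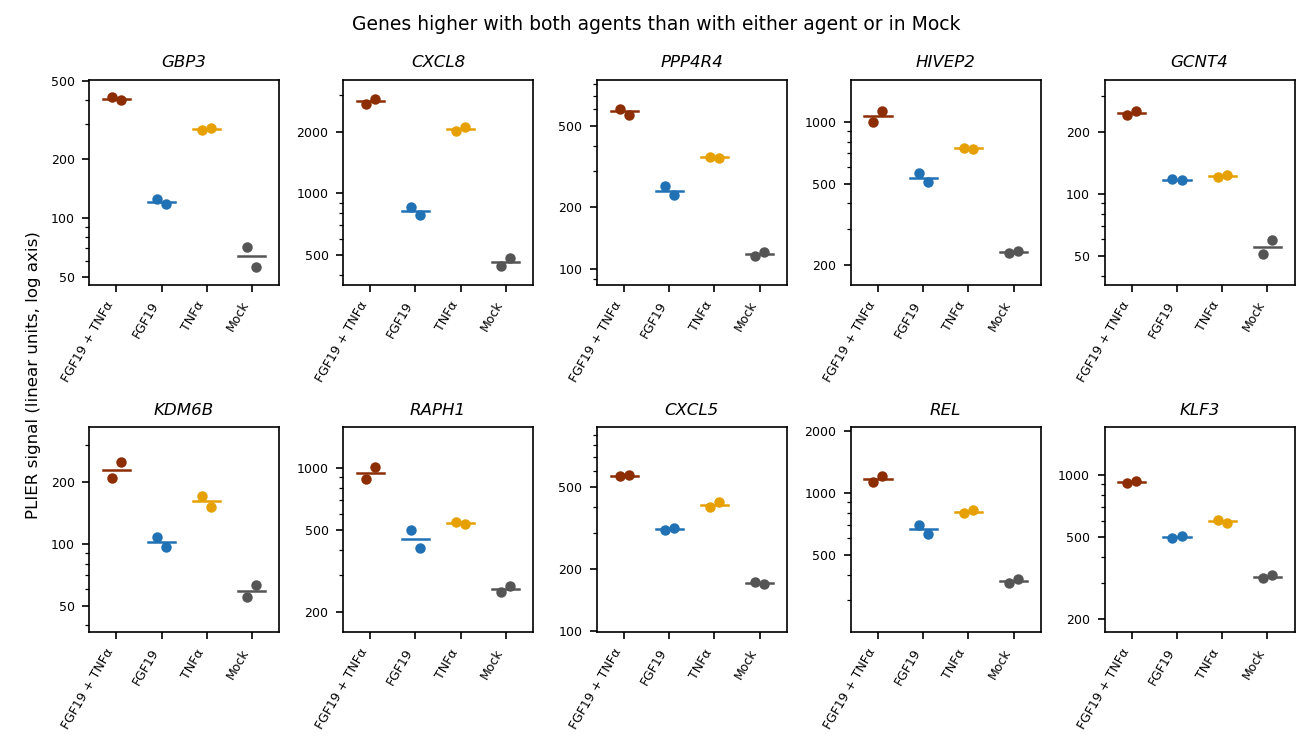
PLIER signal on a log axis for the 10 named genes that were higher with FGF19 + TNFα than with FGF19, with TNFα and in Mock, with 1 point per array and a bar at the mean of 2 arrays. In every panel both FGF19 + TNFα arrays lie above all other arrays, for GCNT4 at 241 and 252.2 against at most 122.6 elsewhere.

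For 43 probesets the single agents were called in opposite directions from Mock, and these were chosen on FGF19 and TNFα arrays and on the Mock arrays that are also used here. In 32 of them FGF19 alone was lower and TNFα alone higher, where 14.1% and 0.967% of all probesets were, and in 11 the reverse held, where 18.2% and 0.0961% were. Of the 32, FGF19 + TNFα was called higher than Mock in 14, lower in 5 and neither in 13. EFNA1, an ephrin ligand, had 844.7 and 722.7 with FGF19 + TNFα, 134.2 and 158.2 with FGF19 alone, 1909 and 1922 with TNFα alone, and 280.4 and 274 in Mock. Its level with both agents lay between those of the single agents and 2.82-fold above Mock. LAMB3, a chain of the basement membrane protein laminin-332, had 1182 and 1148 with FGF19 + TNFα, 522.8 and 656.8 with FGF19 alone, 2779 and 2729 with TNFα alone, and 1312 and 1243 in Mock. With both agents it stood close to Mock, at a log2 difference of −0.13 (SE 0.12, adjusted p = 0.448 by limma). TNFRSF10B, the TRAIL receptor DR5, had 962 and 904.3 with FGF19 + TNFα, 607.8 and 713.1 with FGF19 alone, 2186 and 2245 with TNFα alone, and 1273 and 1191 in Mock. It was 1.32-fold lower with both agents than in Mock (limma adjusted p = 0.0312), and leaving out any 1 of the 4 compared arrays lost the call, with an adjusted p by limma of up to 0.145.

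NFKBIE, which encodes IκBε, had 331 and 303.5 with FGF19 + TNFα, against 269.4 and 251.6 in Mock, 1.22-fold higher with an adjusted p of 0.0497 by limma. It too was lost without any 1 of the 4 arrays, with an adjusted p by limma of up to 0.213. ITPKC, an inositol trisphosphate kinase, rose 1.44-fold, a call lost without either Mock array at an adjusted p by limma of up to 0.0515. MAFF, a small MAF factor, and NINJ1, a cell surface protein, were not called, with log2 differences of 0.30 and −0.07. SLC12A7, IER5 and RRAD were lower by 0.42, 0.52 and 0.30 on the log2 scale, and the calls were lost without any 1 of the 4 arrays for IER5 and RRAD and without any but Mock replicate 2 for SLC12A7, with adjusted p-values by limma of up to 0.108, 0.130 and 0.194. CDKN1A, the cell cycle inhibitor p21, was not of this class, because FGF19 alone left it uncalled. It averaged 284.5 with FGF19 + TNFα, 179.3 with FGF19, 682 with TNFα and 188.2 in Mock. Against Mock it rose 1.51-fold with both agents (log2 difference 0.60, SE 0.09, limma adjusted p = 0.00505).

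**Figure D4:**
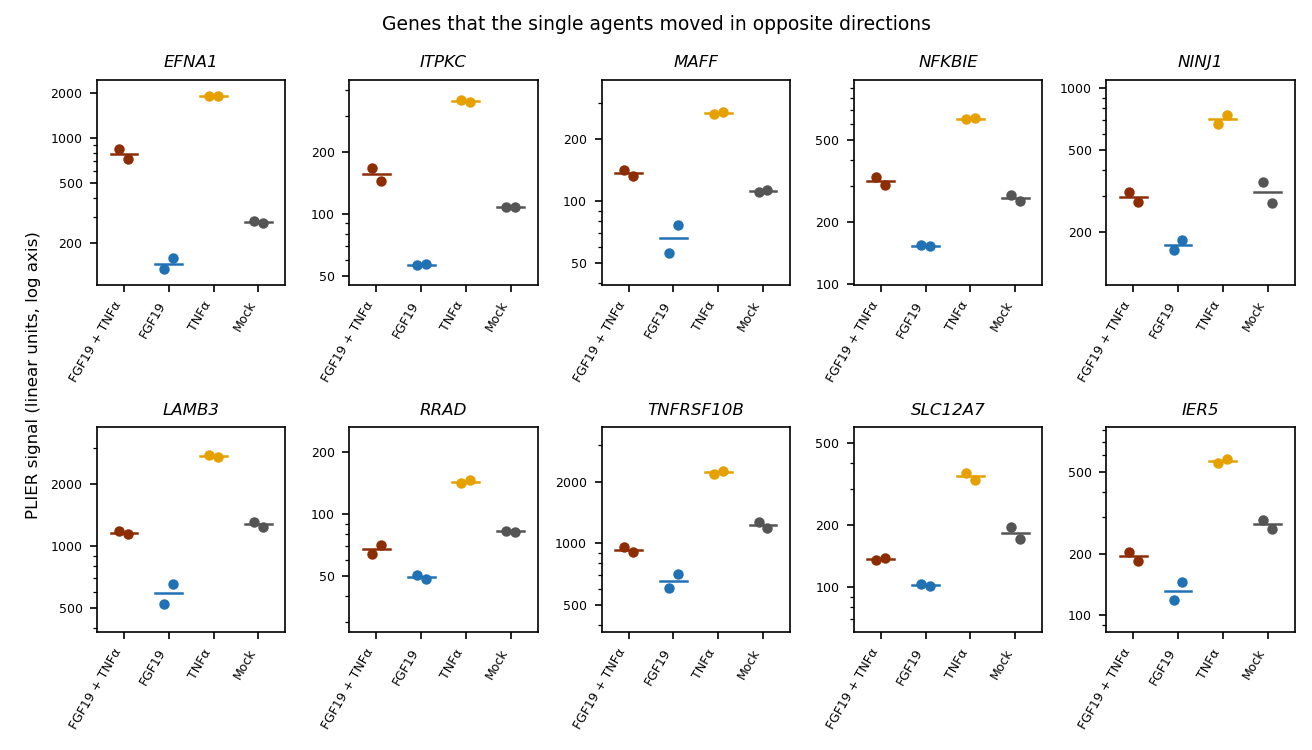
PLIER signal on a log axis for the 10 named genes that FGF19 alone lowered and TNFα alone raised relative to Mock, with 1 point per array and a bar at the mean of 2 arrays. The FGF19 + TNFα arrays lie between those of the single agents, above Mock for EFNA1 (844.7 and 722.7 with FGF19 + TNFα, 280.4 and 274 in Mock) and near Mock for LAMB3 (1182 and 1148 with FGF19 + TNFα, 1312 and 1243 in Mock).

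The genes that fell were of another kind. APRT, which salvages adenine, had 132.3 and 130.6 with FGF19 + TNFα, against 691.8 and 599 in Mock, 4.90-fold lower (log2 difference −2.29, SE 0.12, adjusted p = 0.000957 by limma). RMRP, the RNA of the endonuclease RNase MRP that cuts ribosomal RNA precursors, had 345.2 and 342.5 with FGF19 + TNFα, against 1622 and 1509 in Mock, 4.55-fold lower. GPAA1, a subunit of the transamidase that attaches GPI anchors, had 108.4 and 103.3 with FGF19 + TNFα, against 507.5 and 419.9 in Mock, 4.36-fold lower. WDR18, a ribosome biogenesis factor, was 4.16-fold lower, and the histone gene H2AC4 4.61-fold. HACL2, TMEM101, TMEM147, PLLP, a myelin-associated membrane protein, and SERTAD3 were 3.65-fold to 3.93-fold lower. SNORA68, a small nucleolar RNA, had 127.3 and 148.2 with FGF19 + TNFα, against 636.6 and 888.9 in Mock. MIR98, a member of the let-7 microRNA family, read 21.52 and 12.53 with FGF19 + TNFα, against 105.1 and 158.4 in Mock, and the FGF19 + TNFα level was under the 20th percentile, so the size of the fall is not firm. RMRP averaged 343.8 with FGF19 + TNFα, 372.3 with FGF19, 1391 with TNFα and 1566 in Mock.

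Glycolysis and pentose phosphate genes had 21 of 23 lower and none higher, with a median log2 difference of −0.58. PFKL, the liver form of phosphofructokinase, had 165.6 and 141.4 with FGF19 + TNFα, against 578.3 and 577.9 in Mock, 3.78-fold lower (adjusted p = 0.00195 by limma). SLC2A1, the glucose transporter GLUT1, fell by 1.09 on the log2 scale, HK2, hexokinase 2, by 1.08 and TKT, transketolase, by 0.78. All 23 had a log2 difference below 0. The count of lower genes was 10 to 15 when 1 of the 4 compared arrays was left out. Cholesterol and fatty acid synthesis genes had 11 of 23 lower and 1 higher, and 7 to 10 lower without 1 of the 4 arrays. LSS, which forms the sterol ring, had 431.4 and 391.5 with FGF19 + TNFα, against 1428 and 1252 in Mock, 3.25-fold lower. MVD and MVK, enzymes of the mevalonate pathway, fell by 1.60 and 1.51 on the log2 scale. Purine salvage and interconversion enzymes had 8 of 15 lower and APRT led them, with IMPDH2, the first enzyme towards guanine nucleotides, lower by 1.10 on the log2 scale. Their count was 5 or 6 with 1 of the 4 arrays left out.

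Genes that make ribosomes and proteins were lower in larger numbers. Cytosolic ribosomal protein genes had 33 of 65 lower and 1 higher, at a median log2 difference of −0.36, mitochondrial ribosomal protein genes 40 of 73 lower and 4 higher at −0.46, and ribosome biogenesis factors 16 of 26 lower and 1 higher at −0.48. RPL3, of the large subunit, had 1692 and 1712 with FGF19 + TNFα, against 3382 and 3543 in Mock, 2.03-fold lower. NOC2L had 214.2 and 208.6 with FGF19 + TNFα, against 747.7 and 733.6 in Mock, and FBL, the methyltransferase fibrillarin, fell by 0.92 on the log2 scale. Aminoacyl-tRNA synthetases, which charge tRNAs, had 10 of 19 lower, FARSA most at a log2 difference of −1.55. When 1 of the 4 compared arrays was left out, the lower counts were 19 to 24, 28 to 33, 10 to 12 and 5 or 6 for the 4 groups in the order given. Ribosomal protein genes have many near-identical copies in the genome, and single members are uncertain for that reason.

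Oxidative phosphorylation genes of the nucleus had 46 of 86 lower and 5 higher, with a median log2 difference of −0.44. CYC1, cytochrome c1 of complex III, had 364.6 and 342.2 with FGF19 + TNFα, against 1118 and 1055 in Mock, 3.07-fold lower (log2 difference −1.62, SE 0.13, adjusted p = 0.00163 by limma). SDHD of complex II fell by 1.26 and NDUFA8 of complex I by 1.57 on the log2 scale. Proteasome subunit genes had 26 of 45 lower and 2 higher, PSMB5, a catalytic subunit, by 1.59 and PSMA5 by 1.45 on the log2 scale. Replication-dependent histone genes had 34 of 57 lower and 4 higher, with a median log2 difference of −0.56. H3C11 had 269.4 and 232.3 with FGF19 + TNFα, against 817.5 and 885.2 in Mock, and H3C2 330.6 and 267.2 with FGF19 + TNFα, against 940 and 919.1 in Mock. Histone genes are near-identical in sequence, so single members may share signal. Without 1 of the 4 compared arrays the lower counts were 31 to 38, 14 to 18 and 19 to 26 for these 3 groups.

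With FGF19 alone the lower counts were 20 of 23 for glycolysis, 34 of 65 for cytosolic ribosomal proteins, 42 of 73 for mitochondrial ribosomal proteins, 45 of 86 for oxidative phosphorylation, 27 of 45 for the proteasome and 31 of 57 for histones, where 14.1% of all probesets were lower. With TNFα alone they were 0 in each of these groups, where 0.0961% of all probesets were lower. By contrast, NFκB subunits and inhibitors had 4 higher and 3 lower of 11 with FGF19 alone, where 18.2% and 14.1% of all probesets were, and 7 higher with TNFα alone, where 0.967% were. All of these counts were taken against the same 2 Mock arrays, and a gene called in one comparison and not in another is not thereby shown to differ between them.

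**Figure D5:**
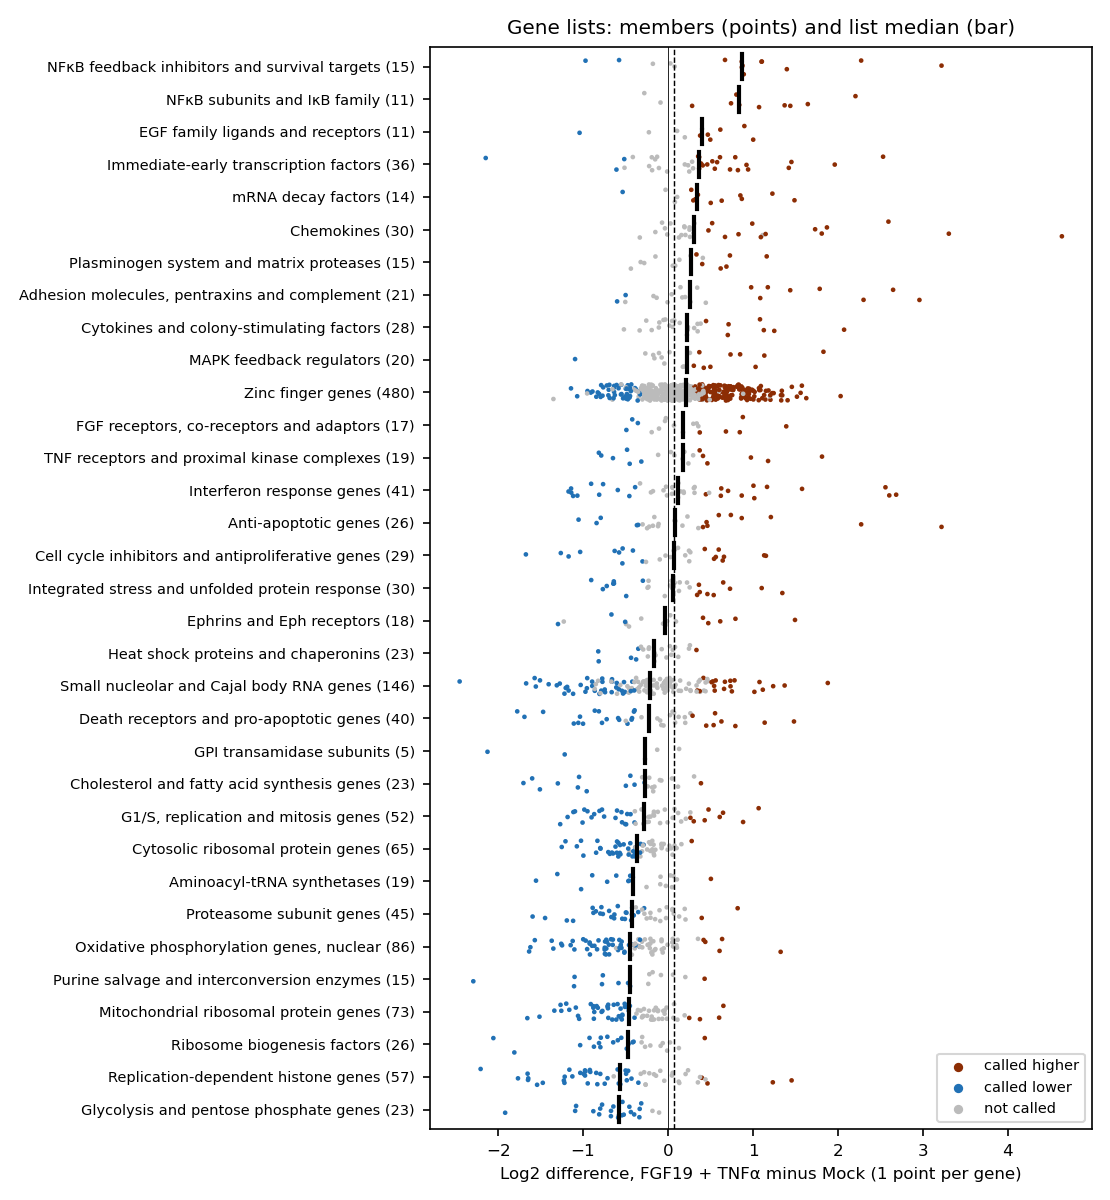
Log2 difference, FGF19 + TNFα minus Mock, for each measured gene of 33 groups (1 point per gene, its brightest probeset), with a bar at the group's median; the dashed line is the median of all genes, 0.07. NFκB feedback genes and subunits have the highest medians, 0.87 and 0.84, and glycolysis and histone genes the lowest, −0.58 and −0.56.

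Genes of cell death and the cell cycle moved in both directions. Of 40 death receptor and pro-apoptotic genes, 18 were lower and 8 higher, with a median log2 difference of −0.22. FADD, the adaptor that links death receptors to caspase 8, had 520.1 and 571.8 with FGF19 + TNFα, against 1867 and 1866 in Mock, 3.42-fold lower (log2 difference −1.77, SE 0.17, adjusted p = 0.00186 by limma). DDIT4 was 3.23-fold lower, MTCH1 2.77-fold, BAD 2.16-fold, CASP9 2.08-fold and BAK1 2.05-fold. FAS, a death receptor, went the other way, with 503.7 and 495.2 with FGF19 + TNFα, against 162.9 and 195.8 in Mock, a 2.80-fold rise. BCL2L11, which encodes BIM, rose 2.20-fold and CASP8 1.45-fold. The lower count was 9 to 14 when 1 of the 4 compared arrays was left out. Anti-apoptotic genes had 9 of 26 higher and 5 lower, 7 or 8 higher and 2 or 3 lower without 1 of the 4 arrays, and 4 of the 9, BCL2A1, BIRC2, TNFAIP3 and TNFAIP8, are also members of the NFκB or TNF receptor groups above.

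Cell cycle inhibitors had 8 of 29 higher and 10 lower. CDKN2B, p15, had 514.6 and 470.7 with FGF19 + TNFα, against 215.2 and 227.7 in Mock, a 2.22-fold rise. CDKN1B, p27, had 330.6 and 296.5 with FGF19 + TNFα, against 691.6 and 717.2 in Mock, 2.25-fold lower. BTG1, an antiproliferative gene, averaged 691.5 with FGF19 + TNFα, 622.9 with FGF19, 1563 with TNFα and 1001 in Mock, and SFN, the checkpoint protein 14-3-3σ, fell by 1.03 on the log2 scale. Genes of G1/S, replication and mitosis had 21 of 52 lower and 8 higher, with MCM2 of the replicative helicase lower by 1.18, POLD1 of DNA polymerase δ by 1.27 and CKS2 by 1.11 on the log2 scale. CDK6, a G1 kinase, was among the 8, at 1.85-fold higher. With 1 of the 4 compared arrays left out, 14 to 19 of the 52 were lower and 3 or 4 higher.

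The genes of the study's own table were followed because the study had chosen them on these arrays, which makes their direction no independent evidence. That holds also for those of the table given above: FADD, DDIT4, MTCH1, TNFRSF10B, TNIP2, DUSP1, BTG1, CDKN1A, CKS2, IRF2 and GAB1. The remaining ones follow. MIF and FNTB of that table had no probeset with exactly 1 symbol and are not given. CCNK rose 2.46-fold and LRRCC1 2.11-fold. SLC35B2, BRMS1, PLEKHG4, CHMP1A, UBB and CHTF8 were lower, by 1.75, 1.67, 1.30, 1.17, 1.14 and 1.12 on the log2 scale. Epithelial markers were present in both groups, with 1 of 6 higher and 2 lower. CDH1, E-cadherin, was the higher one, with 692.6 and 778 with FGF19 + TNFα, against 580.7 and 551.4 in Mock (log2 difference 0.38, adjusted p = 0.0236 by limma), a call lost when single arrays were left out. KRT18 was not called and read 2969 and 2985 with FGF19 + TNFα, against 3618 and 3206 in Mock. KRT19 and KRT8 were the 2 lower ones, by 1.30 and 1.11 on the log2 scale. The luminal prostate markers KLK3 and KLK2 were dim, KLK3 at 47.74 and 43.63 with FGF19 + TNFα, against 53.84 and 46.02 in Mock.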

How the data were processed

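RNA from DU145 cells was measured on 8 Affymetrix Human Gene ST arrays, 2 per group. The authors deposited linear signal intensity for 33297 probesets, and the submitters' processing notes name Affymetrix Expression Console and PLIER. Neither their versions nor any normalization is stated. The intensity was taken to log2 after raising 240 zeros to 0.01, the lowest positive value found. Array signal carries no molecule count, so precision is limited by the 2 arrays per group. A model of 4 groups was fitted with limma 3.58.1 (lmFit, eBayes) in R 4.3.3 on all 8 arrays, without the replicate number, and p-values were adjusted over all probesets by the method of Benjamini and Hochberg. The F test threshold of 0.015 and the 2-fold limit follow the supplementary tables of the study.

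In the platform annotation 19460 probesets carried 1 symbol, 1754 carried more and 12083 had none listed, and 19429 symbols were updated through Entrez identifiers. Array values of FGF19 + TNFα, Mock and the single agents are printed for genes named by a rule: the 14 largest rises and 14 largest falls among called probesets with 1 symbol and a mean signal of at least 100 in the higher group, which leaves out SELE, up to 4 members per gene list by smallest p, up to 10 genes of each single-agent class, the genes of the study's table, and receptors. Genes outside the rule were picked after their values were seen. They are given with a fold or log2 difference alone, apart from KRT18, whose array values are printed. The members, lists and motif were chosen with earlier results of these data known. List counts carry no test. The steps were tested on simulated data. Alternative fits used unmoderated variances, a robust trended prior, the 4 compared arrays alone, a replicate block, each array left out, an offset of 16, removal of the dimmest 20 percent of probesets, and 2 normalizations, cyclic loess and quantile. RefSeq promoters (GRCh38.p14) gave 1 window per gene. Figures were drawn with matplotlib 3.10.9.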

Additional observations from a re-analysis of the deposited data

How the results depend on the processing

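The number of probesets called between FGF19 + TNFα and Mock, 11295, was 10653 after quantile and 10720 after cyclic loess normalization, which moved the median of all probesets to 0.00 on the log2 scale from 0.08 without them. With 1 array of the study left out it ranged over 5643 to 11995, lowest without FGF19 + TNFα replicate 2 and at 6436 and 6166 without Mock replicate 1 or 2; these fits rest on fewer arrays. The count at 2-fold or more, 2151, was 1541 with 16 added before log2 and 1726 to 2609 with 1 array left out. The F test count of 1854 was 748 without moderation of the variances and 723 to 1787 with 1 array left out, again lowest without a Mock array. Same-numbered FGF19 + TNFα and Mock arrays did not deviate together, with a correlation of −0.02 between their deviations from the group means. That correlation was highest, 0.195, between FGF19 and FGF19 + TNFα. Replicate 1 of these 2 groups correlated at r = 0.981 in log2 signal. Within the groups r was 0.969 for FGF19 and 0.972 for FGF19 + TNFα, so some pairing of these 2 groups is not excluded. With the replicate block 11288 probesets were called, 2165 of them 2-fold, and 1747 by the F test. Of 190 named probesets 172 were called and 157 of these under every alternative, all 172 keeping their direction. The 15 others lost the call when single arrays were left out: MMP3, CCT7, CCT5, HSPA6, CDH1, CD3E, PTPRC, IER5, ITPKC, TNFRSF10B, SLC12A7, NFKBIE, RRAD, FGFR4 and TNFRSF1A. Signals near the array floor limit the size of differences at 325 of the 2151 probesets.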

Other observations

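Zinc finger genes, most of them repressors of the KRAB family, leaned the other way from the genes of metabolism. Of 480 measured, 174 were higher with FGF19 + TNFα and 49 lower, with a median log2 difference of 0.21 beside 0.07 over all genes. ZNF267 had 723.3 and 795.2 with FGF19 + TNFα, against 247.9 and 261.1 in Mock, a 2.98-fold rise, and ZNF350 186.7 and 186.5 with FGF19 + TNFα, against 71.34 and 77.16 in Mock. Leaving out 1 of the 4 compared arrays left 91 to 112 higher and 18 to 39 lower. With FGF19 alone 214 were higher, where 18.2% of all probesets were, and with TNFα alone 1, where 0.967% were, against the same Mock arrays. Zinc finger genes are similar in sequence, so single members may share signal.

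Small nucleolar and Cajal body RNA genes, many of which lie in introns of other genes, had 20 higher and 39 lower of 146. SNORA50A read 812.6 and 938.8 with FGF19 + TNFα, against 219.3 and 256.5 in Mock, a 3.68-fold rise, while SNORD12C read 119.8 and 116.6 with FGF19 + TNFα, against 288.6 and 250.8 in Mock. Without 1 of the 4 arrays, 9 to 16 were higher and 19 to 32 lower.

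The stress response genes were divided, with 9 of 30 higher and 8 lower. PPP1R15A, the GADD34 phosphatase subunit that reverses the block of translation, had 591.9 and 638.4 with FGF19 + TNFα, against 280.9 and 291.6 in Mock, a 2.15-fold rise. DNAJC3, an inhibitor of eIF2α kinases, had 1438 and 1405 with FGF19 + TNFα, against 610.7 and 512.2 in Mock, a 2.54-fold rise. ATF4, the transcription factor of this response, had 1570 and 1523 with FGF19 + TNFα, against 2453 and 2353 in Mock, 1.55-fold lower, and a second ATF4 probeset had a log2 difference of −1.20. Heat shock proteins and chaperonins mostly did not pass the test, with 1 higher and 5 lower of 23. DNAJB1, a cochaperone, was 1.77-fold lower. Without 1 of the 4 arrays the stress list had 5 to 8 higher and 3 to 5 lower, and the chaperone list 0 higher and 1 lower.

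Among ephrins and their receptors 5 of 18 genes were higher (27.8%) and 3 lower (16.7%), not far from the 21.5% and 17.3% of all genes. Beside EFNA1, EFNA5 rose 1.73-fold, with 642.1 and 657.1 with FGF19 + TNFα, against 356.2 and 394.2 in Mock. EFNA4 had 167.9 and 141 with FGF19 + TNFα, against 393.2 and 362.4 in Mock, 2.45-fold lower. RNF31, RBCK1 and SHARPIN, the 3 subunits of the complex that builds linear ubiquitin chains at TNFR1, were lower by 0.45, 0.65 and 0.48 on the log2 scale, and OTULIN, which removes such chains, was 1.29-fold higher. These 4 were picked after their values were seen. Leaving out 1 of the 4 compared arrays took the count of lower genes in their list of 19 to 1 to 4, against 6 with all arrays.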
